A study of Mus musculus with 4 samples.

Results

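The tumour suppressor gene *Trp53* and 9 genes that its product p53 switches on were examined in sorted somatostatin-lineage cells of the embryonic mouse brain with or without a conditional deletion of *Dnmt1*. The 10 genes were chosen by name (*Trp53*, *Mdm2*, *Cdkn1a*, *Ccng1*, *Phlda3*, *Eda2r*, *Trp53inp1*, *Sesn1*, *Sesn2* and *Ptchd4*), out of 56883 genes in the table, and each name matched 1 gene. *Ptchd4* entered because of its rise in the same libraries, so its values are given as a description without a test. The question was whether the other p53 targets move with it. The libraries hold total RNA of tdTomato-positive cells sorted from the basal telencephalon at E14.5. There were 2 control libraries (*Sst-Cre/tdTomato*) and 2 *Dnmt1* KO libraries (*Sst-Cre/tdTomato/Dnmt1 loxP2*), each from cells pooled over several embryos. Both genotypes carry Cre driven from the *Sst* locus and the Cre-dependent tdTomato reporter, and only the KO embryos carry floxed *Dnmt1* alleles. Deletion is therefore limited to cells that have expressed Cre from *Sst*, and the sex of the embryos was not distinguished.

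The p53 protein is a transcription factor that is kept at low levels by MDM2, a ubiquitin ligase that marks it for degradation. DNA damage and other stresses release p53 from this control, and it then binds pairs of short DNA motifs and switches on genes of cell cycle arrest, cell death, repair and metabolism. MDM2 is itself such a target, which closes a feedback loop. Loss of DNMT1, the enzyme that copies DNA methylation onto newly made strands, is known to activate p53 in dividing mouse fibroblasts.

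The consensus bound by p53 was searched in GRCm39, the build to which the authors aligned, within 3000 bases on each side of the annotated start of every gene. A match had 20 bases without a spacer, the motif CNNG intact in both repeats, and at most 2 mismatches among the other 16 bases, counting the inner bases of the core. The consensus is its own reverse complement, so both strands were covered. Such a match was found near 6.12% of 14285 tested genes and near 3 of the 10 genes here. The matches are shown on the strand of each gene, with the C and G of each core in capitals. They let the genes with a close copy of the consensus be compared with those without one in this window, *Ptchd4* among them.
Cdkn1a, chr17:29309902-29309921, plus strand, 1 mismatch: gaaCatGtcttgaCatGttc
Ccng1, chr11:40646289-40646308, minus strand, 1 mismatch: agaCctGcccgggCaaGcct
Ccng1, chr11:40645763-40645782, minus strand, 1 mismatch: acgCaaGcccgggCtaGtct
Eda2r, chrX:96420140-96420159, minus strand, 2 mismatches: gggCaaGtccgggCctGtgt
The *Cdkn1a* match lies 24 bases before the annotated start of the gene, and those of *Ccng1* lie 150 bases before and 375 bases after it. The *Eda2r* match lies 697 bases after the start. *Ptchd4* had no such match in this window, nor had *Trp53*, *Mdm2*, *Phlda3*, *Trp53inp1*, *Sesn1* or *Sesn2*. This says only that these letters are not within it. A match is a description of sequence and not evidence of binding in these cells.

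*Ptchd4* (ENSMUSG00000042256) encodes a patched-domain membrane protein that has been described in human cells as a p53 target able to dampen Hedgehog signalling. It lies on the plus strand of chromosome 17 from 42626838 to 42818547 in GRCm39, a span of 191710 bp, and its protein-coding transcript has 3 exons and 6497 bases. Its normalized count, the number of reads divided by the authors' size factor for the library, was 61.7 and 50.02 in control cells and 188 and 131 in *Dnmt1* KO cells. These values rest on 69, 49, 191 and 120 reads. Both KO libraries lay above both control libraries, and the KO libraries differed from each other by more than the control libraries did. The means were 55.9 ± 8.29 (SD, n = 2) in control cells and 160 ± 40.5 (SD, n = 2) in KO libraries, a log2 fold change of 1.48 (standard error 0.21) on log2(normalized count + 1), or 2.80-fold. With 1 library left out in turn, the log2 fold change lay between 1.22, without *Dnmt1* KO replicate 1, and 1.74, without *Dnmt1* KO replicate 2. Adjusted for a trend with transcript length and GC content in each library, it was 1.41. No other annotated gene overlapped *Ptchd4* on either strand.

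*Trp53* itself (ENSMUSG00000059552, chromosome 11, 69469669 to 69482701) had normalized counts of 294 and 251 in control cells and 212 and 216 in *Dnmt1* KO cells. Both KO libraries lay below both control libraries. The mean was 272 ± 30.0 (SD, n = 2) in control cells and 214 ± 3.02 (SD, n = 2) in KO cells, which is 78.7% of the control mean. In limma's fit across all 14323 genes tested, with Benjamini-Hochberg adjustment, this difference missed the threshold of 0.05 (log2 fold change -0.34, standard error 0.12, adjusted p = 0.0693), although its unadjusted p was 0.0138. Its transcript shares 263 bases with exons of *Wrap53* on the opposite strand, whose own log2 fold change was -0.18. The library kit keeps the strand of the RNA, but the strand setting of the quantification is not given in the sources used here, and the share of reads that the genes exchange was not tested.

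*Mdm2* (ENSMUSG00000020184), the gene with the highest level of the 10 per kilobase of transcript, had normalized counts of 612 and 521 in control and 491 and 534 in *Dnmt1* KO libraries. The genotypes overlapped, with -0.14 as log2 fold change (standard error 0.096, adjusted p = 0.361 in limma). The 95% interval of the difference ran from 0.788-fold to 1.05-fold. With 1 library left out, the log2 fold change of *Mdm2* ran from -0.26, without control replicate 2, to -0.023, without control replicate 1. *Ccng1* (ENSMUSG00000020326), which encodes cyclin G1, a partner of protein phosphatase 2A in the control of MDM2, had 151 and 126 in control and 130 and 131 in KO libraries. The KO values fell between the control values, and the log2 fold change of -0.076 (adjusted p = 0.795 in limma) turned positive, to 0.057, without control replicate 1. The 3′ part of its gene shares 114 exonic bases with *Nudcd2* on the opposite strand.

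*Cdkn1a* (ENSMUSG00000023067) encodes p21, the inhibitor of cyclin-dependent kinases through which p53 halts the cell cycle. It had low normalized counts of 31.3 and 13.3 in control and 30.6 and 38.2 in *Dnmt1* KO libraries, from 35, 13, 31 and 35 reads. The control library with 31.3 lay between the KO libraries, so the genotypes overlapped and only control replicate 2 was low. The mean was 22.3 ± 12.8 (SD, n = 2) in control cells and 34.4 ± 5.42 (SD, n = 2) in KO libraries, which did not pass the test (log2 fold change 0.71, standard error 0.40, adjusted p = 0.25 in limma). This value depended on single control libraries, being 1.302 without control replicate 1 (adjusted p = 0.0723 in limma) and 0.12 without control replicate 2 (adjusted p = 0.89 in limma). Its 95% interval, from 0.910-fold to 2.95-fold, includes both no change and a rise as large as that of *Ptchd4*. *Dino*, a transcript annotated on the opposite strand at the start of *Cdkn1a*, shares 504 exonic bases with it and had normalized counts of 14.3 and 15.3 in control and 11.8 and 6.56 in KO libraries.

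The sestrins restrain the growth-promoting kinase complex mTORC1 under stress. *Sesn1* (ENSMUSG00000038332) had normalized counts of 140 and 166 in control and 191 and 184 in *Dnmt1* KO libraries. All KO values exceeded all control values, but the difference did not pass the test (log2 fold change 0.30, standard error 0.14, adjusted p = 0.179 in limma), with a 95% interval from 0.994-fold to 1.52-fold. The log2 fold change was 0.17 without control replicate 1 (adjusted p = 0.56 in limma) and 0.42 without control replicate 2. *Sesn1* shares 548 exonic bases with *Cep57l1* on the opposite strand. *Sesn2* (ENSMUSG00000028893) had 40.3 and 27.6 in control and 30.6 and 32.8 in KO libraries. Both KO values fell between the control values (log2 fold change -0.072, adjusted p = 0.912 in limma), and the sign turned without control replicate 1, to 0.19, and with quantile normalization, to 0.024.

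*Trp53inp1* (ENSMUSG00000028211), whose product supports p53 activity and autophagy under stress, had normalized counts of 429.5 and 361 in control and 394 and 386 in *Dnmt1* KO libraries. The KO values again lay between the control values, with -0.016 as log2 fold change (standard error 0.10, adjusted p = 0.942 in limma) and a 95% interval from 0.848-fold to 1.154-fold. The log2 fold change was 0.11 without control replicate 1 and -0.27 when adjusted for transcript length and GC content (adjusted p = 0.095 in limma). *Phlda3* (ENSMUSG00000041801), an inhibitor of the kinase AKT, had 23.3 and 13.3 in control and 26.6 and 18.6 in KO libraries. The genotypes overlapped (log2 fold change 0.32, standard error 0.41, adjusted p = 0.658 in limma), and the value was -0.061 without control replicate 2. *Eda2r* (ENSMUSG00000034457), a receptor of the tumour necrosis factor receptor family, was near the limit of detection, with 10 and 3 reads in control and 8 and 2 reads in KO libraries. Its mean normalized count was below 10, and it was not tested.

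**Figure D1:**
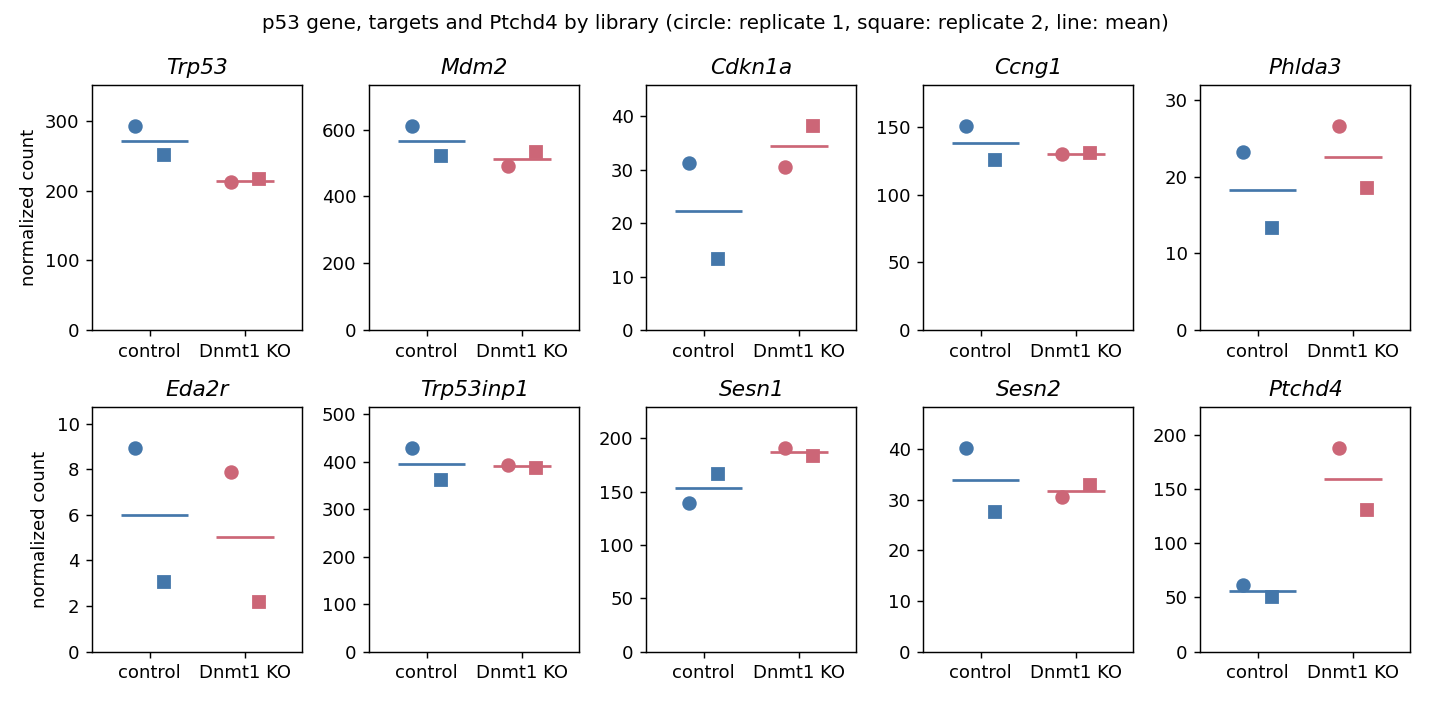
Normalized counts of the 10 genes in each library, on a separate linear axis from 0 for each gene (blue: control, red: *Dnmt1* KO, circles: replicate 1, squares: replicate 2, lines: means of 2 libraries). *Ptchd4* has KO values of 188 and 131 against control values of 61.7 and 50.02. *Mdm2*, *Cdkn1a*, *Ccng1*, *Phlda3*, *Eda2r*, *Trp53inp1* and *Sesn2* overlap between genotypes.

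Of the 9 genes other than *Ptchd4*, 8 passed the filter on low values and 0 of these 8 were called different between genotypes by limma at an adjusted p below 0.05. Across all genes tested, limma called 17.3%. At an unadjusted p below 0.05, 1 of the 8 (*Trp53*, the lower one) passed, against 30.2% of all genes tested. On the recovered reads, edgeR, DESeq2 and limma-voom each called 0 of the 8, against 17.6%, 9.26% and 17.4% of all genes tested. In 2 of the 8 (*Trp53* and *Sesn1*), the genotypes did not overlap, against 57.4% of all genes tested, and the directions were opposite. The log2 fold changes of the 8 ran from -0.34 to 0.71 with 3 above 0 and 5 below, and their median was -0.044, beside -0.0033 over all genes tested.

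The log2 fold change of *Ptchd4* exceeded those of the 8 other genes by 0.77 for *Cdkn1a* up to 1.82 for *Trp53*. The upper end of the 95% interval was 2.31-fold for *Phlda3* and at most 1.52-fold for *Mdm2*, *Ccng1*, *Trp53inp1*, *Sesn1*, *Sesn2* and *Trp53*, below the 2.80-fold of *Ptchd4*. The interval of *Cdkn1a* reached 2.95-fold. The 2.80-fold of *Ptchd4* is itself an estimate (log2 fold change 1.48, standard error 0.21), and its error is not part of this comparison. These intervals are not adjusted for the number of genes, and since *Ptchd4* was picked for its rise, the gap was not tested.

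**Figure D2:**
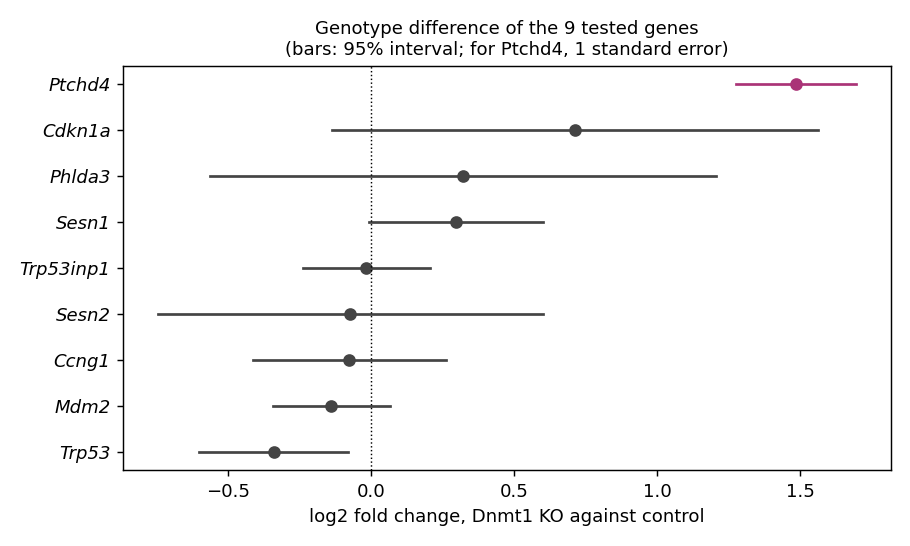
Log2 fold change of *Dnmt1* KO against control for the 9 genes that passed the filter (points), with the 95% interval from limma (bars) and, for *Ptchd4*, which was picked for its rise, 1 standard error. *Ptchd4* stands at 1.48, *Cdkn1a* follows at 0.71 with an interval that crosses 0, and *Trp53* is lowest at -0.34.

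Levels per kilobase used the length of 1 annotated transcript per gene, the one with the longest coding sequence. The isoforms expressed in these cells were not determined, and other lengths could change the order. On this scale, *Mdm2* was highest in the control libraries at 167 normalized counts per kilobase. It was followed by *Trp53* at 112, *Trp53inp1* at 63.0, *Sesn1* at 40.2 and *Ccng1* at 38.0. *Sesn1* and *Ccng1* did not differ beyond the spread of the control libraries. *Sesn2* at 9.65, *Ptchd4* at 8.60, *Phlda3* at 7.96 and *Cdkn1a* at 5.44 formed a lower group in which each overlapped the next over the control libraries, and *Eda2r* was lowest at 0.925. In the *Dnmt1* KO libraries, *Ptchd4* reached 24.6 normalized counts per kilobase and moved from the seventh to the sixth place. It remained below *Ccng1*, which had 35.9 normalized counts per kilobase in these libraries.

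Among 15 regulators of p53, 14 were tested, and 2 were called higher in *Dnmt1* KO cells and 0 lower, or 14.3% against 17.3% of all genes tested. The median log2 fold change was 0.058. The genes called, *Crebbp* and *Ep300*, encode acetyltransferases that modify p53 and histones. *Kat5*, another acetyltransferase gene of the list, had 399 and 398 in control and 345 and 370 in KO libraries and was not called (log2 fold change -0.16, adjusted p = 0.307 in limma). *Crebbp* rose from 2934 and 2995 to 3449 and 3619 normalized counts (a log2 difference of 0.25, standard error 0.050, adjusted p = 0.0025 in limma). *Ep300* rose from 1432 and 1549 to 1728 and 1852 (log2 fold change 0.26, standard error 0.064, adjusted p = 0.00937 in limma). The call of *Ep300* was lost without control replicate 1 (adjusted p = 0.0775 in limma) and without *Dnmt1* KO replicate 2 (adjusted p = 0.0752 in limma). The kinase genes *Atm* and *Atr*, which signal DNA damage to p53, had log2 fold changes of -0.023 and 0.070 and were not called (adjusted p = 0.895 and 0.787 in limma). *Chek1*, a kinase gene of the same list, had 44.7 and 37.8 in control and 35.5 and 12.0 in KO libraries. It was not called (log2 fold change -0.95, adjusted p = 0.138 in limma). Among the alternatives that kept all 4 libraries, only the replicate number as a block called it, as lower. Its values rest on 50 and 37 reads in control and 36 and 11 reads in KO libraries, and the fall lay mainly in *Dnmt1* KO replicate 2. *Chek2* had 28.6 and 25.5 in control and 15.8 and 22.9 in KO libraries and was not called (log2 fold change -0.48, adjusted p = 0.418 in limma). *Cdkn2a*, whose ARF product blocks MDM2, had 1 and 2 reads in control and 0 reads in either KO library, too few for a comparison.

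A wider list of 51 further p53 targets had 41 that passed the filter. Limma called 7 of them (17.1%, against 17.3% of all genes tested), with 2 higher (4.88%, against 8.3% of all genes) and 5 lower (12.2%, against 8.99%). The median log2 fold change was -0.12, beside -0.0033 over all genes tested. The count of calls moved with single libraries, being 3 without control replicate 1 (11.5% of all genes called), 2 without control replicate 2 (10.6%), 3 without *Dnmt1* KO replicate 1 (15.4%) and 8 without *Dnmt1* KO replicate 2 (14.7%). It was 3 with quantile normalization (15.7% of all genes called), 4 when adjusted for transcript length and GC content (18.1%), 8 with the replicate number as a block (20.6%) and 0 without limma's variance trend (0.0%). DESeq2 called 2 of the list, *Btg2* lower and *Thbs1* higher.

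Of 9 cell cycle targets, all tested, 1 was higher and 3 were lower (33.3%, against 8.99% of all genes tested). DESeq2 called 1 of the 9, *Btg2*. *Btg2*, an antiproliferative gene that also marks neurogenic divisions, fell from 180 and 172 to 79.9 and 90.7 normalized counts (a log2 difference of -1.04, standard error 0.16, adjusted p = 0.000377 in limma). *Gtse1*, a microtubule-associated gene expressed in G2 and S phase, fell from 105 and 90.9 to 55.2 and 56.8 (log2 fold change -0.79, adjusted p = 0.0144 in limma), and the call was lost without control replicate 1 (adjusted p = 0.128) and without control replicate 2 (0.0511). *Psrc1*, which acts on spindle microtubules, fell from 92.2 and 131 to 53.3 and 75.4 (log2 fold change -0.78, adjusted p = 0.0274 in limma), and the call was lost without control replicate 2 (adjusted p = 0.282), without *Dnmt1* KO replicate 1 (0.117), with quantile normalization (0.0612) and when adjusted for length and GC content (0.0534). DESeq2 called neither *Gtse1* nor *Psrc1*. *Plk2*, a kinase gene, rose from 1024 and 1014 to 1170 and 1171 (log2 fold change 0.20, adjusted p = 0.0457 in limma). The call of *Plk2* was lost with any 1 library left out, with an adjusted p from limma between 0.0998 and 0.157.

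Of 11 cell death targets, 7 were tested, and 0 were higher and 1 was lower by limma (14.3%, against 8.99% of all genes tested), while DESeq2 called 0 of the 7. This was *Siva1*, a proapoptotic gene, which fell from 139 and 144 to 93.7 and 102 (log2 fold change -0.53, adjusted p = 0.035 in limma). Its adjusted p was 0.119 without *Dnmt1* KO replicate 1, 0.112 without control replicate 1 and 0.163 without control replicate 2, and its log2 fold change was -0.31 when adjusted for transcript length and GC content. *Bax*, the classical p53 target that permeabilises mitochondria, had 274 and 240 in control and 219 and 266 in *Dnmt1* KO libraries and did not pass the test (log2 fold change -0.088, adjusted p = 0.704 in limma). Of 17 targets of repair and metabolism, 13 were tested. Limma called 0 of these, against 17.3% of all genes tested, and 2 had an unadjusted p below 0.05, against 30.2%. DESeq2, edgeR and limma-voom also called 0 of the 13, against 9.26%, 17.6% and 17.4% of all genes tested.

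Of 14 other targets, 12 were tested, and 1 was higher and 1 lower (16.7% called, against 17.3% of all genes tested). DESeq2 called only *Thbs1* of the 12. *Thbs1*, which encodes the secreted matrix protein thrombospondin-1, rose from 429 and 462 to 870 and 896 normalized counts (a log2 difference of 0.99, standard error 0.081, adjusted p = 1.01e-06 in limma). It had the highest log2 fold change of the wider list, 0.99 beside 1.48 for *Ptchd4*. *Abhd4*, a lipase gene, fell from 121 and 107 to 56.2 and 89.6 (log2 fold change -0.67, adjusted p = 0.0481 in limma). Its adjusted p was 0.354 without *Dnmt1* KO replicate 1 and 0.227 and 0.121 without control replicates 1 and 2. The log2 fold change of *Abhd4* was -0.34 without *Dnmt1* KO replicate 1 and -1.004 without *Dnmt1* KO replicate 2.

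**Figure D3:**
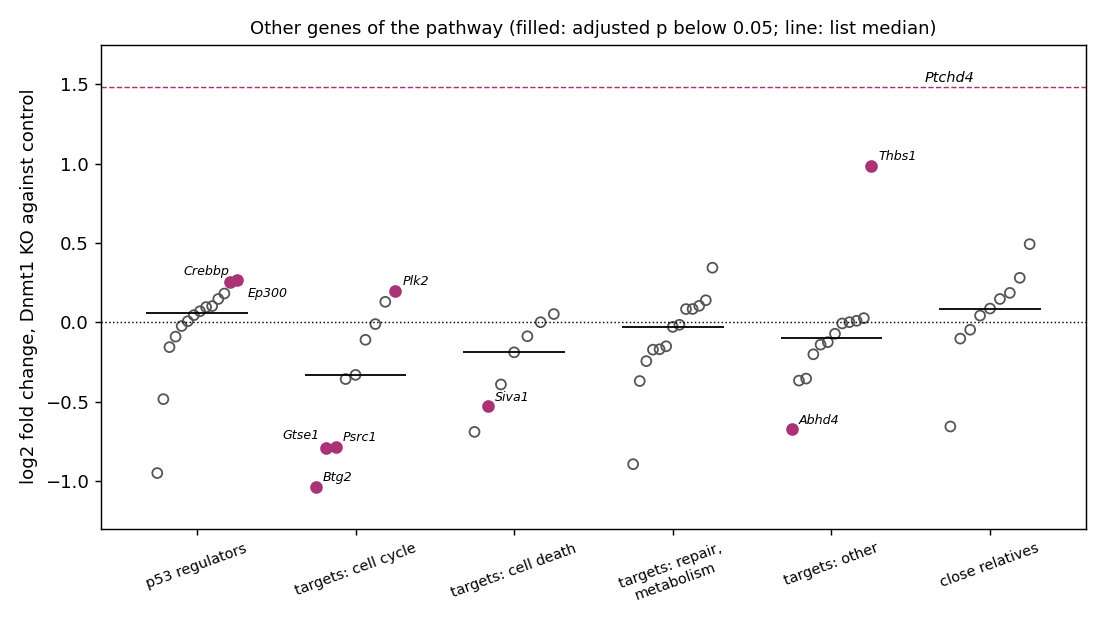
Log2 fold change of *Dnmt1* KO against control for every tested gene of the lists around p53 (circles; filled and named where limma's adjusted p was below 0.05), with the median of each list (black lines) and the value of *Ptchd4* (dashed line at 1.48). *Thbs1* at 0.99 is the highest gene of these lists and *Btg2* at -1.04 the lowest.

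Markers of other cells moved between the genotypes beside these genes. Over all genes tested, limma called 8.99% lower and 8.3% higher. Of 12 proliferation genes, 11 were lower in *Dnmt1* KO cells by limma and 7 by DESeq2, and the sum of all 12 was 6571 to 6813 normalized counts in control and 4640 to 4659 in KO libraries. Of 10 radial glia genes, 6 were lower and 1 higher (sum 10592 to 10773 in control, 6418 to 6650 in KO). Of 8 excitatory lineage genes, 6 were lower (sum 2971 to 3023 in control, 1491 to 1628 in KO), as were 9 of 10 tested vascular and microglial genes (6 by DESeq2, sum of 12 genes 779 to 821 in control, 336 to 356 in KO) and 8 of 8 tested blood genes (7 by DESeq2, sum of 10 genes 2433 to 2610 in control, 587 to 592 in KO). All 11 interneuron genes, *Sst*, *Lhx6* and *Gad1* among them, were present and higher in KO cells (sum 23930 to 24018 in control, 34997 to 35575 in KO). No gene of these lists was at 0 in all 4 libraries. *Btg2*, *Gtse1* and *Psrc1* fell in the same direction as the proliferation genes, and *Ptchd4* was higher like the interneuron genes. The log2 fold change was 1.48 for *Ptchd4* and 0.34 to 0.80 for the interneuron genes. The part of cell composition in these differences was not tested. Fewer cells of a type and less RNA per cell cannot be told apart in pooled cells.

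Genes related to *Ptchd4* by their patched domain, and genes of the Hedgehog pathway, were looked at beside it. *Disp2*, a Dispatched gene, was called by limma and not by DESeq2. It rose from 634 and 730 to 822 and 838 normalized counts (a log2 difference of 0.29, standard error 0.082, adjusted p = 0.0259 in limma). Its adjusted p was 0.193 without control replicate 1 and 0.0698 without *Dnmt1* KO replicate 2. *Ptch1*, the Hedgehog receptor and a transcriptional target of the pathway, had 473 and 525 in control and 440 and 414 in KO libraries and was not called (log2 fold change -0.22, adjusted p = 0.119 in limma). *Gli1*, a transcription factor gene switched on by Hedgehog signalling, had 24.2 and 14.3 in control and 10.9 and 9.83 in KO libraries. All KO values lay below all control values, but the difference did not pass the test (log2 fold change -0.79, standard error 0.47, adjusted p = 0.28 in limma).

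None of the 4 tested genes nearest to *Ptchd4* on chromosome 17 was called by limma. On the side before its start, the nearest tested genes were *Mmut*, 1351965 bp away, with 0.11 as log2 fold change (adjusted p = 0.783 in limma), and *Cenpq*, with -0.15 (adjusted p = 0.778 in limma). On the other side, *Cd2ap* lay 285292 bp away, with 166 and 137 normalized counts in control and 164 and 191 in *Dnmt1* KO libraries (log2 fold change 0.23, adjusted p = 0.335 in limma). *Tnfrsf21*, 508802 bp away, had 0.018 as log2 fold change (adjusted p = 0.935 in limma).

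The genes whose profile over the 4 libraries was most like that of *Ptchd4* were *Xist*, *Fam135b*, *Neto1*, *Neb* and *Maf*. Likeness was the Euclidean distance between log2(normalized count + 1) profiles centred on their means, over the 8417 other tested genes whose mean normalized count reached 100. The distance was 0.426 for *Xist*, 0.453 for *Fam135b*, 0.476 for *Neto1*, 0.478 for *Neb* and 0.545 for *Maf*. *Xist*, the RNA that coats the inactive X chromosome of female cells, had 1402 and 1360 normalized counts in control and 3428 and 3311 in *Dnmt1* KO libraries, and the share of female embryos in each pool is not given in the sources used here. The part of this share in the values of *Ptchd4*, an autosomal gene, was not tested.

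**Figure D4:**
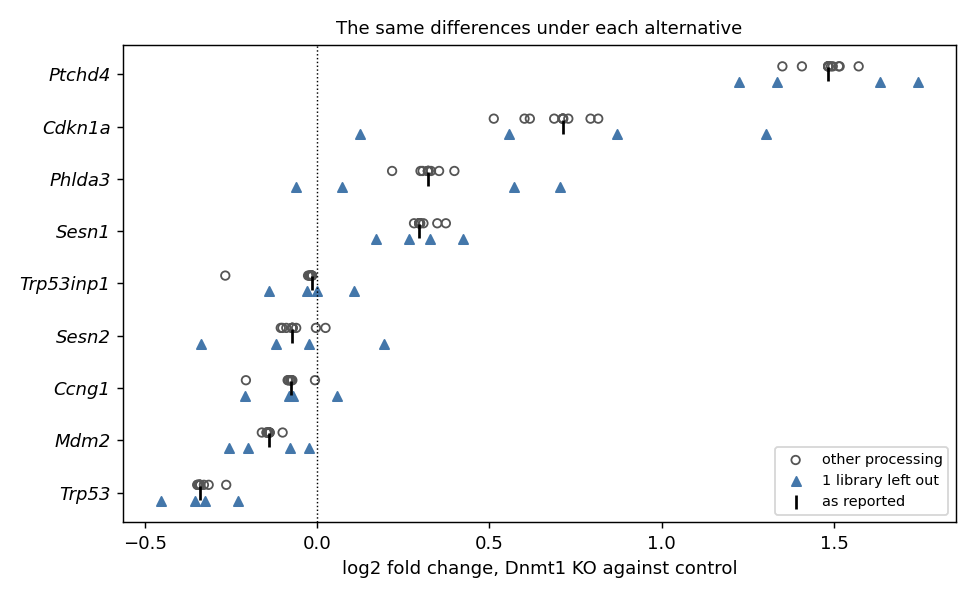
Log2 fold change of *Dnmt1* KO against control for the 9 tested genes as reported (black bars), with each library left out in turn (blue triangles) and under the other processing alternatives (open circles). *Ptchd4* ranges from 1.22 to 1.74, *Cdkn1a* from 0.12 to 1.302, and *Ccng1*, *Phlda3*, *Sesn2* and *Trp53inp1* lie on both sides of 0.

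The depth was similar across libraries, with 6970247 to 8376711 recovered reads. Replicates differed by more than counting noise (chi-square per degree of freedom 2.71 for the control and 2.31 for the *Dnmt1* KO libraries). *Dnmt1* itself had 2238 and 2341 normalized counts in control and 2164 and 2210 in KO libraries (log2 fold change -0.066, adjusted p = 0.461 in limma). These counts cover the whole gene, and reads from transcripts with and without the floxed exons were not separated. With 2 libraries per genotype, no exact permutation test can reach 0.05, and every p here rests on the spread that limma shares across genes.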

How the data were processed

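Total RNA of sorted cells was sequenced in 4 libraries, grouped by their labels. Per the labels and the paper, the authors used Trim Galore, STAR (GRCm39), Salmon and DESeq2 for trimming, alignment, quantification and normalization. The deposited signal is a read count divided by a size factor of its library. Whole counts were recovered from 100% of the 89965 values above 0, with a tolerance of 0.0001 reads. They are called reads here. They are gene counts from Salmon, and how reads were assigned to genes was not examined.

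A gene was tested if its mean normalized count over both genotypes reached 10. The 14323 such genes were compared on log2(normalized count + 1) with limma 3.58.1 (eBayes with trend, R 4.3.3), with genotype as the only term and Benjamini-Hochberg adjustment over all of them. Alternatives were other pseudocounts (0.5, 10) and minima (1, 50), TMM or quantile scaling, no variance trend, edgeR 4.0.16, DESeq2 1.42.0 or limma-voom on the recovered reads, an adjustment for transcript length and GC content, a block for the replicate number, and leaving out 1 library, where the lone remaining library is assumed to vary like the others. GENCODE annotation for GRCm39 matched 14285 tested genes, and 1 transcript per gene gave its length. Intervals are 95% and unadjusted. The fit was also run on counts simulated with edgeR's spread for each gene, and no result here rests on that run.

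The listed genes, the lists and the tests were chosen with earlier results of these data known. Named genes are the 10 listed genes, members of the other pathway lists past the threshold (at most 4 per direction), the 5 genes most like *Ptchd4* and the 2 nearest tested genes on each side of it. *Bax*, *Atm*, *Atr*, *Chek1*, *Chek2*, *Cdkn2a*, *Kat5*, *Ptch1*, *Gli1*, the overlapping genes and the relatives in the closing section were named after their values were seen. The samples are pools of embryos, and the p-values rest on the spread between pools, which limma shares across genes. Some genes of the patched and Hedgehog lists are not reported here, and no counts are given for these 2 lists.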

Additional observations from a re-analysis of the deposited data

How the results depend on the processing

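Of the 9 listed genes without *Ptchd4*, 0 were called by limma and under all alternatives run except the replicate number as a block, which called 1, *Trp53*, as lower (limma's adjusted p = 0.0467) and raised the calls over all genes from 2476 to 2957. The labels do not say whether the replicate numbers pair the libraries. The deviations of same-numbered libraries correlated at -0.085 over 14323 genes, which cannot settle this, since each gene gives only 1 difference per genotype. With 1 library left out in turn, 0 to 0 of the 9 were called. Of the other p53 targets, 7 were called, against 3 with quantile normalization, 4 when adjusted for length and GC content, 2 with DESeq2, 0 without the variance trend, 8 with the replicate block and 2 to 8 with 1 library left out. Of the p53 regulators, 2 were called, against 0 without the variance trend, 3 with the block and 1 to 3 with 1 library left out. Without the variance trend, limma called 0 of all genes tested. The sign turned for *Ccng1* (-0.21 to 0.057 with 1 library left out), *Phlda3* (-0.061 to 0.70), *Trp53inp1* (-0.14 to 0.11) and *Sesn2* (-0.34 to 0.19, and 0.024 with quantile normalization). The cause of these changes was not tested. *Ptchd4* lay between 1.22 and 1.74 throughout. Depth limits *Eda2r*, with 23 reads in all, *Phlda3*, with 83, and *Cdkn1a*, with 114.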

Other observations

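Relatives of the listed genes that p53 is not mainly known to control were compared beside them. Of 12 such genes, 9 were tested and 0 were called by limma, edgeR, DESeq2 or limma-voom, with 3 in limma at an unadjusted p below 0.05, against 17.3% of all genes called by limma and 30.2% at an unadjusted p below 0.05. *Cdkn1b*, which encodes the cell cycle inhibitor p27, had 619 and 642 normalized counts in control and 736 and 699 in *Dnmt1* KO libraries, and *Cdkn1c*, which encodes p57, had 1001 and 1034 in control and 913 and 983 in KO libraries. *Sesn3*, a sestrin gene, had 472 and 472 in control and 449 and 465 in KO libraries, and *Trp73*, a p53 family gene, had 45.6 and 43.9 in control and 26.6 and 29.5 in KO libraries. *Trp63*, the other family gene, had 2 and 0 reads in control and 2 and 9 reads in KO libraries. These genes were picked from the list after their values were seen.

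In 9 of the 10 listed genes, all but *Sesn1*, control replicate 1 had a higher normalized count than control replicate 2, whereas 51.1% of all genes tested were higher in control replicate 1. In the *Dnmt1* KO libraries, 5 of the 10 were higher in replicate 1. The cause of this order was not tested.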
